A study of Mus musculus with 6 samples.

Results

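The genes described here are cilium genes, of which some encode its transport machinery. They are intraflagellar transport (Ift) genes, Bardet-Biedl syndrome (Bbs) genes, genes named for cilia- and flagella-associated proteins (Cfap) and the pair Ttc21a and Ttc21b. They were chosen by name, as genes with a feature of the array that names 1 gene only, and where several features did so the one with the highest mean over the 6 arrays was used. Of 30702 genes measured, 55 met this rule: 14 Ift, 2 Ttc21, 8 Bbs and 31 Cfap genes. The set was put together because Ift22 and Cfap300 had been seen to be lower in cells with HOXB4, so the values of these 2 genes are a description and carry no test.

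The arrays read RNA from a mouse embryonic stem cell line, named iRunx in the labels, after it had been grown into embryoid bodies, the aggregates in which stem cells form early tissues. On day 4 the bodies were taken apart and cells with Flk1 and without PDGFRα were sorted, in both groups. The HOXB4 group (3 arrays) expressed the homeodomain protein HOXB4 from a retrovirus together with the red marker tdTomato, and the control group (3 arrays) had no such expression. The sources used here do not say whether the controls carried an empty vector or whether the cells came from 1 clone. The design text describes 3 independent experiments.

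A cilium is a microtubule-based projection that most cells of the early embryo carry as a single, immotile antenna for Hedgehog and other signals. Nothing is made inside it, so its parts travel in and out on intraflagellar transport trains: the IFT-B complex and kinesin carry cargo to the tip, the IFT-A complex and dynein bring it back, and the BBSome, a coat of BBS proteins, helps membrane proteins leave. Cfap genes form no single complex, and many of them serve the beating cilia and flagella of the node, airway and sperm.

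The values are log2 summaries in which the median gene lay between 5.10 and 5.22 and the median background feature between 3.06 and 3.15 in the 6 arrays. Features differ in how brightly they report a transcript, so a level is compared between arrays for 1 gene and never between genes. Kdr, which encodes Flk1, stood at 14.33, 13.68 and 13.82 in HOXB4 cells 1 to 3 and at 13.72, 14.12 and 13.83 in controls 1 to 3. The feature listed for Pdgfra also names a microRNA gene, so Pdgfra was not measured alone. That feature stood at 5.95, 7.15 and 6.04 in HOXB4 cells 1 to 3 and at 6.67, 6.47 and 6.89 in controls 1 to 3. HOXB4 2 was the highest of all arrays and control 2 the lowest control. Of the 6 markers of node and motile ciliated cells 5 were measured (Foxj1 has no feature of its own), and their mean ran from 3.98 to 4.13 in HOXB4 cells and from 4.01 to 4.16 in controls. Array HOXB4 2 stood apart from HOXB4 1 and 3 in the 6 measured mesoderm markers. They averaged 6.56, 8.09 and 6.54 in HOXB4 cells 1 to 3, against 8.69, 8.23 and 8.36 in controls 1 to 3. In the sorted controls Hand1, Tbx20 and Foxf1 of this list were bright (means 13.36, 11.45 and 10.97). Twist1, Tbx6 and Meox1 stood at 5.72, 5.23 and 3.83. The list is therefore not read as a measure of cells outside the sorted gate. With 3 arrays a group, precision is limited throughout.

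Ift22 is a Rab-like small GTPase of the IFT-B core. Its values were 9.15, 9.17 and 9.12 in HOXB4 cells 1 to 3, against 9.68, 9.65 and 9.57 in controls 1 to 3. The groups did not overlap, the HOXB4 arrays lay close together, and the difference of -0.49 (SE 0.081) is 1.40-fold lower expression in HOXB4 cells. Cfap300 encodes an assembly factor of the dynein arms that drive ciliary beating. It stood at 8.37, 8.72 and 8.32 in HOXB4 cells 1 to 3, against 9.24, 9.43 and 9.15 in controls 1 to 3. Here too the groups did not overlap, and the difference of -0.80 (SE 0.14) is 1.74-fold lower expression in HOXB4 cells. In Ift22 HOXB4 2 lay with the other HOXB4 arrays. In Cfap300 it lay above the other HOXB4 arrays, toward the controls, but below each of them. In both genes control 2 lay with the other controls. Measured by Pearson's r over the 6 arrays, Cfap300 was the member most like Ift22 (r = 0.95), followed by Cfap44 (0.88) and Cfap221 (0.87); for Cfap300 the order was Ift22 (0.95), Cfap221 (0.94) and Cfap44 (0.86). These coefficients span both groups and therefore contain the gap between them, for which Ift22 and Cfap300 were chosen. Cfap44 and Cfap221 were dim, below the median of all features in all 6 arrays (mean values 3.88 and 3.47).

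The promoters of these 2 genes, which prompted the set, are shown. The windows come from RefSeq (GRCm38.p6), run from 250 bases before to 50 after the annotated start, and are written 5′ to 3′ on the gene's strand. Capitals mark matches, on either strand, to TAATTA, the core recognised by many homeodomain proteins, or to GTTGCCA, an arm of the X-box bound by RFX factors, the regulators of cilium genes. The Ift22 window lies at chr5:136907900-136908199 on the plus strand and that of Cfap300 at chr9:8042826-8043125 on the minus strand.
Ift22: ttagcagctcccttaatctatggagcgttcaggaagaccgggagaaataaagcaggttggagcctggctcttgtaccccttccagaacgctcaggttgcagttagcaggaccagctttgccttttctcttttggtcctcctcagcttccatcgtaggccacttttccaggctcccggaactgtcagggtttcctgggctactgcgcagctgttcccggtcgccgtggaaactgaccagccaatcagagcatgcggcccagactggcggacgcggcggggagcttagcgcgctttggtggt
Cfap300: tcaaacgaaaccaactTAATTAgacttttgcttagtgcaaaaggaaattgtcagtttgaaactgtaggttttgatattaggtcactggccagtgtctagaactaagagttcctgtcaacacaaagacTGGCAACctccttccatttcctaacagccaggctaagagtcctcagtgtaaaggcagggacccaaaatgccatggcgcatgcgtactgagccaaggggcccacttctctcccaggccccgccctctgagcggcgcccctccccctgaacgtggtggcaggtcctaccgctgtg
The Cfap300 window held 1 match to each motif and the Ift22 window none. Over all 32851 windows of this length in the RefSeq table, 5.29% held TAATTA and 4.38% held GTTGCCA. A match is a run of letters and not a binding site, and neither HOXB4 nor RFX binding was measured.

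X-box letters stood more often in the members' promoters than in the table as a whole, a description with no test. A window was found for 45 of the 55 members, 48 windows in all. GTTGCCA stood in 12 of the 48 (25.0%), in 11 genes, against 4.38% of all windows. The X-box consensus of 14 letters, searched on both strands, stood in 5 of the 48 (10.4%), against 0.691% of all windows. The 5 matches are given with the letters that the consensus restricts in capitals and its free positions in lower case, each 5′ to 3′ on the strand that reads as the consensus.
Ift57: GTcACCacGGCAAC
Bbs1: GTcGCCttGGCAAC
Cfap44: GTtGCCatAGCAAC
Cfap45: GTtACCatAGCAAC
Cfap298: GTtGCCcgGGCAAC
They lie at chr16:49699207-49699220 (minus strand), chr19:4906613-4906626 (plus), chr16:44394772-44394785 (minus), chr1:172521111-172521124 (minus) and chr16:90935024-90935037 (minus) in GRCm38.p6. The motifs overlap: in Cfap44 and Bbs1 the 7 letters GTTGCCA, on one strand or the other, lie inside the 14 of the consensus. The homeodomain core TAATTA stood in 1 of the 48 windows (2.08%), that of Cfap300, and the Hox-Pbx motif TGATTNAT in 1 (2.08%), that of Ift46, against 5.29% and 3.22% of all windows. CCAAT, a general promoter motif, stood in 43.8% of the members' windows and 37.4% of all.

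At an adjusted p of 0.05 (limma, Benjamini-Hochberg over all 30702 genes) no member was called, and nor was any other gene (0 called, 0%); without moderation 0 were called too, with 1974 genes at an unadjusted p below 0.05. In the moderated test, at an unadjusted p below 0.05, 1828 genes were lower (5.95%) and 685 higher (2.23%) in HOXB4 cells. Among the 53 members other than Ift22 and Cfap300, 1 was lower at that level, Cfap97, and 0 were higher, which is no more than the background. What the members showed was a lean of many small differences to one side: 46 of the 55 lay below 0 (83.6%), where 60.0% of all genes did. Their median difference was -0.11, and -0.11 without Ift22 and Cfap300, beside -0.039 for all genes. Control 1 was the highest control in 32 of the 55 members. Centred on each gene's mean, the median over members was -0.089, -0.025 and -0.040 in HOXB4 cells 1 to 3. In controls 1 to 3 it was 0.12, 0.018 and 0.015, so control 1 stood apart. Over all genes these were -0.053, -0.011 and -0.0062, and 0.060, 0.014 and -0.013. Without control 1, 46 members lay below 0 (83.6%), beside 54.4% of all genes. With cyclic loess between the arrays 39 of the 55 lay below 0 (70.9%), beside 48.3% of all genes.

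All 3 HOXB4 values lay below all 3 control values in 9 members, where 10.2% of all genes showed this: Ift22, Ift27, Ift46, Cfap300, Cfap97, Cfap44, Cfap126, Cfap221 and Cfap65. They lay above in 3 members (Cfap53, Cfap161 and Cfap47), beside 3.24% of all genes. Ift22 and Cfap300 prompted the set, and leaving them out the lower members numbered 7 of 53 (13.2%), beside the same 10.2%. The first count rests on which arrays are compared: it was 22 without HOXB4 2, 16 without HOXB4 3, 17 without control 2 and 18 without control 3, where the share over all genes was 21.4%, 16.0%, 17.0% and 20.8%. Its lowest value with an array left out was 9, and the share over all genes was 13.7% without HOXB4 1 and 13.2% without control 1. Fewer arrays overlap less often, so these counts are read against their own background. With cyclic loess the first count was 4 (6.22% of all genes). Among the 35 members that passed the filter on dim features 5 were lower and 1 higher without overlap, beside 12.1% and 3.43% of the genes that passed. Ift22 and Cfap300 were among these 5. At an unadjusted p below 0.05 the lower members numbered 7 without HOXB4 2 (8.52% of all genes) and 5 without control 3 (6.99%), against 3 with all arrays, Ift22 and Cfap300 included in each. Without HOXB4 1, HOXB4 3 or control 1 only Ift22 and Cfap300 were lower at that level (2.72%, 2.95% and 2.96% of all genes). Ift88 joined them without control 2 (4.65%). After leaving out HOXB4 2, 46 of all genes (0.150%) passed the adjusted test, none of them a member.

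**Figure D1:**
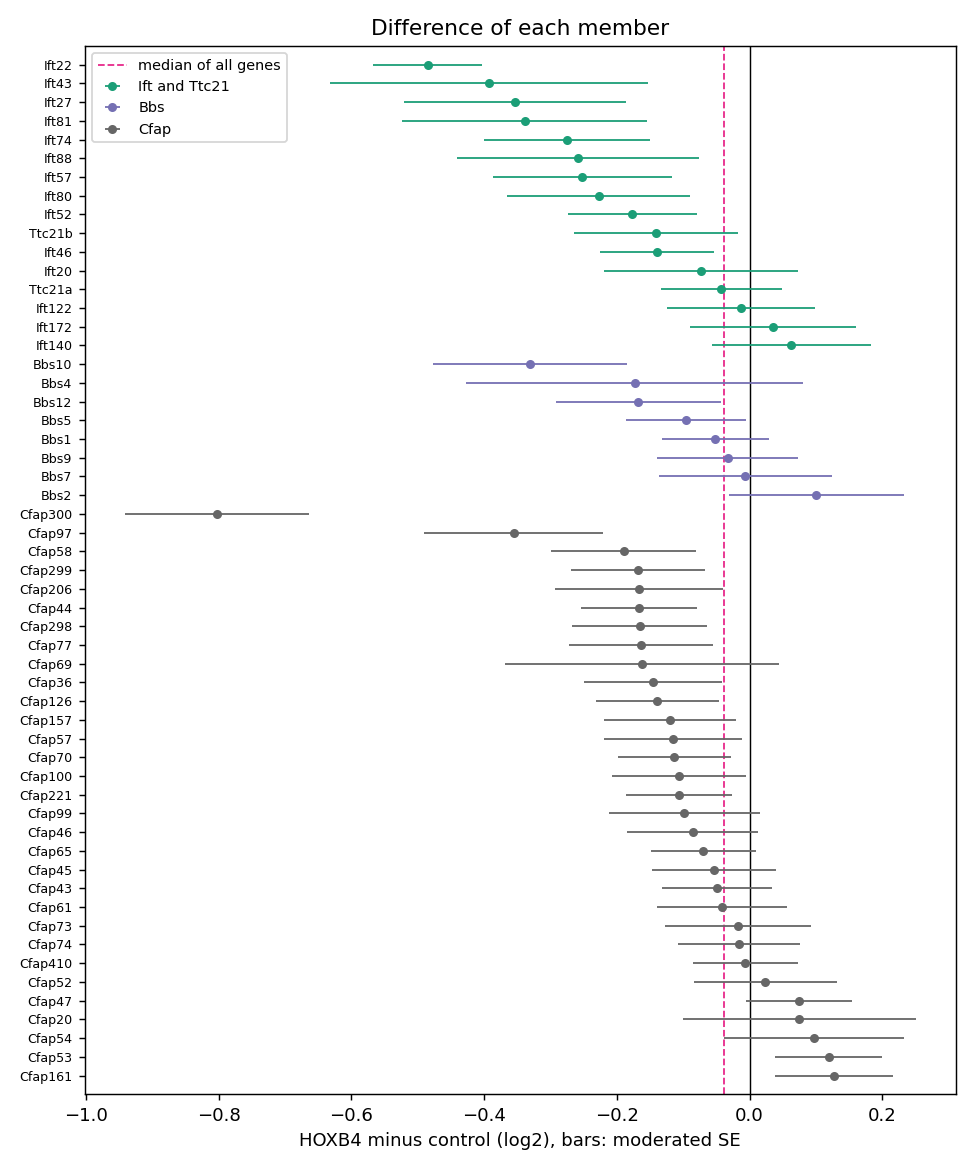
HOXB4 minus control difference of each of the 55 members on the log2 scale (x axis), ordered within the Ift and Ttc21, Bbs and Cfap genes. Points are differences over 3 arrays a group and bars are moderated standard errors. The dashed line is the median of all genes. Cfap300 and Ift22 lie farthest left of their classes, and 46 of the 55 points lie below 0.

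The lean was widest in the IFT-B complex, the outward carrier. Of its 11 members 10 lay below 0, with a median of -0.25 and, leaving out Ift22, -0.24. The 7 core subunits with an Ift name were all below 0 (-0.27), as were 3 of the 4 such peripheral subunits (-0.15). This division of the complex was applied after the values were seen. The naming rule leaves out IFT-B genes under other names, among them Ttc30b at 0.22 (SE 0.13). With the 5 of these that were measured, 13 of 16 IFT-B genes lay below 0 and 3 above, with a median of -0.22. None of the 11 members passed the limma test, the smallest adjusted p among the 10 other than Ift22 being 0.611, for Ift74.

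Ift27, a small GTPase that works in the export of the BBSome, stood at 7.45, 7.32 and 7.28 in HOXB4 cells 1 to 3, against 8.08, 7.52 and 7.51 in controls 1 to 3. The groups did not overlap, but control 1 alone was far above the rest, and the difference of -0.35 (SE 0.17) was -0.17 without it. Ift46, a core subunit, stood at 9.17, 9.19 and 9.23 in HOXB4 cells 1 to 3, against 9.25, 9.34 and 9.42 in controls 1 to 3. The groups just failed to touch, with a difference of -0.14 (SE 0.086). Ift52, a scaffold of the core, ran 8.04 to 8.18 in HOXB4 cells and 8.16 to 8.39 in controls, so that HOXB4 2 lay just above the lowest control. Its difference was -0.18 (SE 0.097).

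The other 3 core members shared a different layout. Ift81, which binds tubulin together with Ift74, stood at 7.14, 7.68 and 7.15 in HOXB4 cells 1 to 3, against 7.83, 7.42 and 7.73 in controls 1 to 3. Ift74 stood at 9.79, 10.18 and 10.02 in HOXB4 cells 1 to 3, against 10.35, 10.16 and 10.31 in controls 1 to 3. Ift88, the gene mutated in the Oak Ridge polycystic kidney mouse, stood at 8.67, 8.96 and 8.50 in HOXB4 cells 1 to 3, against 9.10, 8.63 and 9.17 in controls 1 to 3. In each of them HOXB4 2 was the highest HOXB4 array and control 2 the lowest control, and the 2 overlapped. The differences were -0.34 (SE 0.18) for Ift81, -0.27 (SE 0.12) for Ift74 and -0.26 (SE 0.18) for Ift88.

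Among the peripheral subunits Ift57 and Ift80 had that layout too. Ift57 stood at 8.35, 8.80 and 8.49 in HOXB4 cells 1 to 3, against 8.75, 8.73 and 8.90 in controls 1 to 3, a difference of -0.25 (SE 0.13). Ift80, a gene of skeletal ciliopathies in humans, stood at 7.14, 7.42 and 7.14 in HOXB4 cells 1 to 3, against 7.47, 7.26 and 7.66 in controls 1 to 3, a difference of -0.23 (SE 0.14). Both had HOXB4 1 and 3 below every control. Ift20, which also works at the Golgi, ran 12.15 to 12.62 in HOXB4 cells and 12.37 to 12.61 in controls, with HOXB4 2 the lowest of all 6 arrays. Its difference of -0.073 (SE 0.15) turned to 0.069 without HOXB4 2. Ift172 ran 6.57 to 6.86 in HOXB4 cells and 6.48 to 6.78 in controls, which overlapped throughout, and it alone of the IFT-B members had a difference above 0, 0.035 (SE 0.12).

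**Figure D2:**
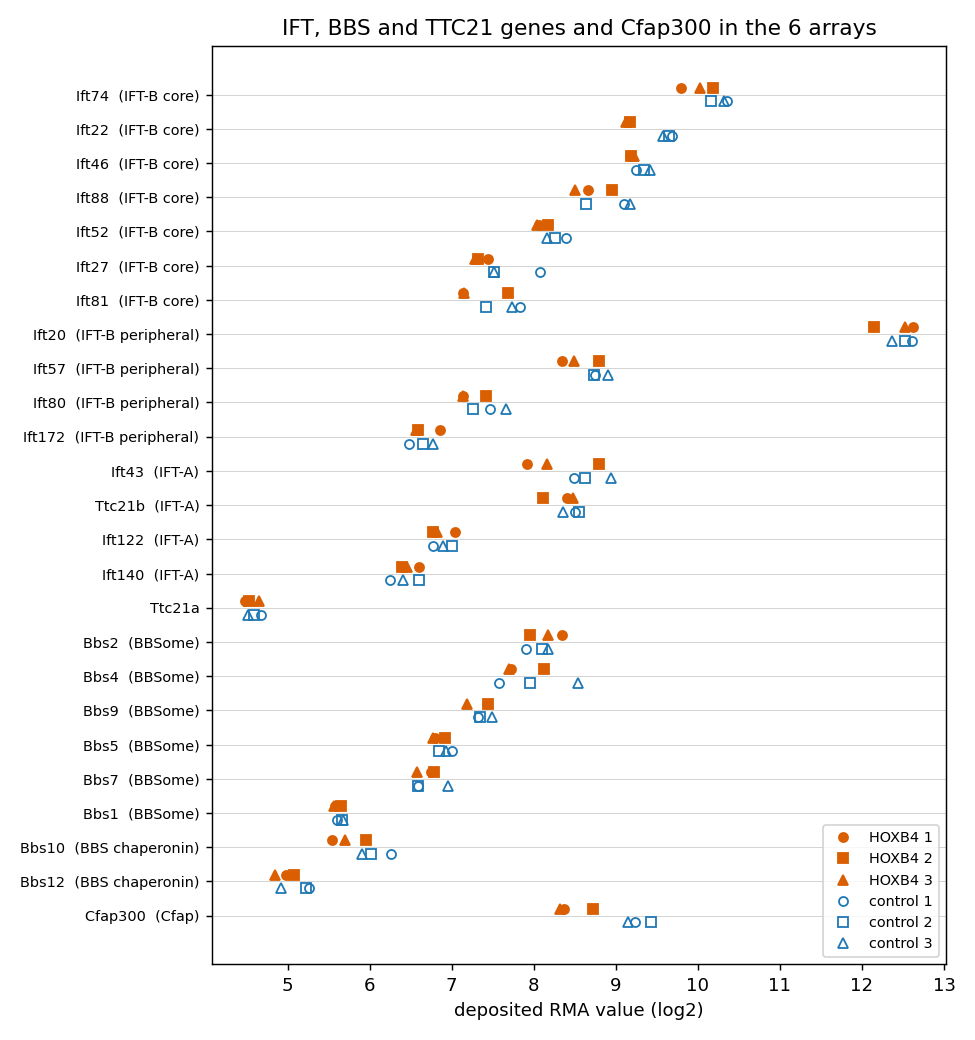
Deposited log2 values (x axis) of the Ift, Ttc21 and Bbs genes and Cfap300 in each array. Filled orange symbols are HOXB4 arrays and open blue symbols are controls, with the replicate number given by the shape. Ift22 and Cfap300 separate by group, while in Ift81, Ift88, Ift57 and Ift80 the HOXB4 2 square lies among the controls.

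The layout with HOXB4 2 highest in its group and control 2 lowest in its own was seen in 5 of the 11 IFT-B members (45.5%), 0 of the 4 IFT-A members, 2 of the 8 Bbs genes and 6 of the 31 Cfap genes, beside 17.3% of all genes. It was defined after the values of these IFT-B members were seen, so their count is a description and no test. Cell type markers varied in the same arrays. The 3 red cell markers averaged 6.26, 7.91 and 6.14 in HOXB4 cells 1 to 3 and 7.57, 6.45 and 8.04 in controls 1 to 3, and the 8 markers of endothelium and early blood averaged 11.38, 9.39 and 10.57 in HOXB4 cells 1 to 3 and 9.68, 10.86 and 9.62 in controls 1 to 3. Etv2, among these 8, ran the other way, at 9.58, 12.06 and 10.16 against 12.31, 11.75 and 12.33. The 4 pluripotency markers averaged 7.07, 8.19 and 8.31 in HOXB4 cells 1 to 3 and 7.25, 6.85 and 7.49 in controls 1 to 3. Hand1, a factor of extra-embryonic and cardiac mesoderm, stood at 8.98, 12.83 and 8.61 in HOXB4 cells 1 to 3 and 13.79, 12.82 and 13.46 in controls 1 to 3. Of the other measured mesoderm markers, Foxf1, Tbx20 and Twist1 had HOXB4 2 below every control (10.58, 10.67 and 5.13). Tbx6 had HOXB4 2 above every control (5.60) and Meox1 had it among them (3.70). The part of cell composition in the IFT-B differences was not tested, and in sorted bulk samples fewer cells of a type and less RNA per cell cannot be told apart. Leaving out 1 array moved these differences both ways. That of Ift81 ran from -0.52 (without HOXB4 2) to -0.25 (without HOXB4 1), that of Ift57 from -0.38 (without HOXB4 2) to -0.15 (without HOXB4 1) and that of Ift74 from -0.37 (without HOXB4 2) to -0.17 (without HOXB4 1). The difference of Ift88 ran from -0.43 (without control 2) to -0.16 (without HOXB4 3 or control 3), and that of Ift80 from -0.33 (without control 2) to -0.13 (without control 3). Over the same 6 settings that of Ift22 ran from -0.52 to -0.46.

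**Figure D3:**
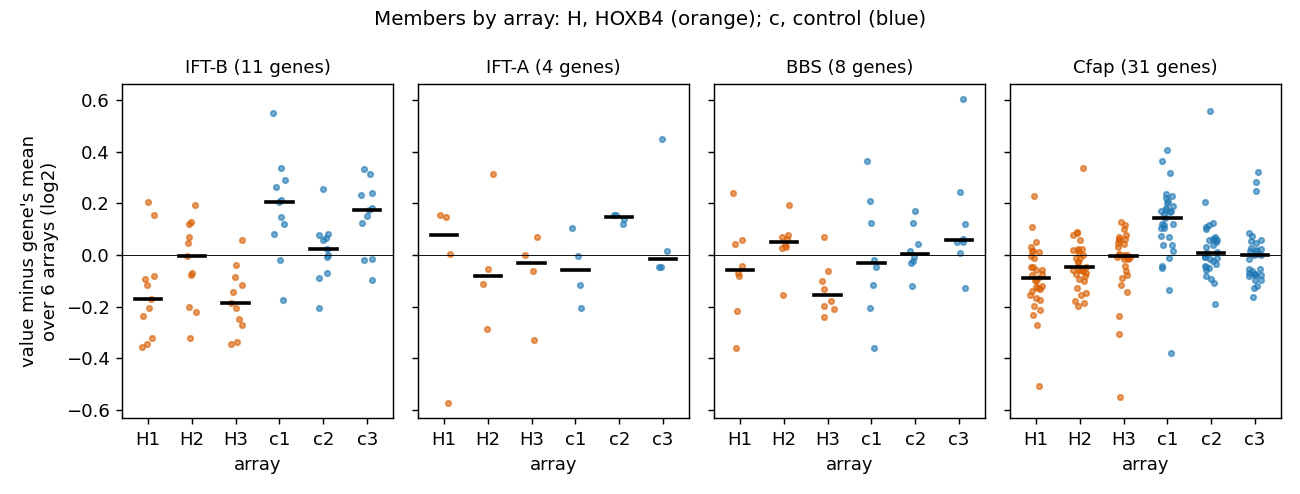
Each point is 1 gene in 1 array, as its log2 value minus the gene's mean over the 6 arrays (y axis); bars are medians over the genes of a panel. H1 to H3 are HOXB4 arrays and c1 to c3 controls. The IFT-B medians of H1 and H3 lie below 0 and those of c1 and c3 above, with H2 and c2 close to 0 and to each other.

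Centred on each gene's mean, the IFT-B median was -0.17, -0.0056 and -0.18 in HOXB4 cells 1 to 3 and 0.21, 0.022 and 0.18 in controls 1 to 3. HOXB4 2 and control 2 were close to each other. The IFT-A median was 0.076, -0.082 and -0.032 in HOXB4 cells 1 to 3 and -0.058, 0.15 and -0.015 in controls 1 to 3, with no order between the groups. The Cfap median was -0.090, -0.046 and -0.0054 in HOXB4 cells 1 to 3. In controls 1 to 3 it was 0.14, 0.0086 and -0.00063. Control 1 was the highest control in 22 of the 31 Cfap genes.

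The IFT-A complex, which returns cargo to the cell body, showed 1 sizeable difference among its 4 members. Ift43 stood at 7.92, 8.80 and 8.16 in HOXB4 cells 1 to 3, against 8.49, 8.63 and 8.94 in controls 1 to 3. HOXB4 2 lay among the controls and the other HOXB4 arrays below them, so the difference of -0.39 (SE 0.24) has a wide error; it was -0.65 without HOXB4 2, -0.20 without HOXB4 1 and between these with any other array left out. Ttc21b, the IFT-A subunit also called THM1, ran 8.11 to 8.47 in HOXB4 cells and 8.35 to 8.56 in controls, a difference of -0.14 (SE 0.12). Ift122 and Ift140, at -0.013 (SE 0.11) and 0.063 (SE 0.12), differed by less than their errors. Ttc21a, the paralogue of Ttc21b, was at -0.042 (SE 0.092); it was the single Ift or Ttc21 member that missed the filter for dim features, which keeps a feature that reaches its array's overall median on 3 arrays or more. The 3 IFT-A genes outside the naming rule differed by less than their errors, with Tulp3, an adaptor that brings receptors into the cilium, at -0.092 (SE 0.17), Wdr19 at -0.039 (SE 0.12) and Wdr35 at -0.026 (SE 0.14). The difference between IFT-B and IFT-A was not tested.

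Of the 5 measured IFT-B genes under other names 3 lay below 0, with a median of -0.0098. Cluap1, the peripheral subunit IFT38, stood at 7.45, 7.70 and 7.57 in HOXB4 cells 1 to 3, against 7.97, 7.74 and 7.81 in controls 1 to 3. Its groups did not overlap and it differed by -0.27 (SE 0.11) (limma adjusted p = 0.605). Ttc26 (IFT56) was at -0.22 (SE 0.15), while Ttc30b (an IFT70), Traf3ip1 (IFT54) and Hspb11 (IFT25), the partner of Ift27, were at 0.22 (SE 0.13), 0.042 (SE 0.093) and -0.0098 (SE 0.11).

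Of the 8 Bbs genes 7 lay below 0, beside 60.0% of all genes, with a median of -0.073. Bbs10, a chaperonin-like protein that helps assemble the BBSome, had the largest difference. It stood at 5.54, 5.96 and 5.70 in HOXB4 cells 1 to 3, against 6.26, 6.02 and 5.91 in controls 1 to 3, a difference of -0.33 (SE 0.15) (limma adjusted p = 0.605). HOXB4 2 lay just above the lowest control, and the other HOXB4 arrays were below all of them. Bbs12, another chaperonin-like protein, ran 4.84 to 5.08 in HOXB4 cells and 4.93 to 5.27 in controls, a difference of -0.17 (SE 0.12).

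The 6 subunits of the BBSome itself had a median of -0.042. Bbs4 ran 7.69 to 8.13 in HOXB4 cells and 7.57 to 8.54 in controls, a wide spread among the controls, and differed by -0.17 (SE 0.25). Bbs5 was at -0.096 (SE 0.090) and Bbs1 at -0.051 (SE 0.081). Bbs9, Bbs7 and Bbs2 were at -0.033 (SE 0.11), -0.0064 (SE 0.13) and 0.10 (SE 0.13), each less than its error. Of the 4 measured BBS genes under other names, Lztfl1, which regulates BBSome traffic, was at -0.18 (SE 0.10), the subunit Ttc8 at -0.14 (SE 0.12), the chaperonin Mkks at -0.015 (SE 0.11) and the subunit Bbip1 at 0.0034 (SE 0.099).

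The Cfap genes held the member with the largest difference and many that the array reported dimly. Of the 31, 18 lay below the median of all features in all 6 arrays, and 12 passed the filter for dim features. Differences below 0 were found in 25 of the 31 (median -0.11); among the 18 dim ones it was 15 (median -0.092), beside 7270 of the 11158 genes that were as dim (65.2%). A difference in a feature near background is read as a value only.

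Of the Cfap genes other than Cfap300 that the array reported most brightly, Cfap97 differed most. It stood at 8.961, 8.900 and 8.845 in HOXB4 cells 1 to 3, against 9.484, 9.286 and 9.001 in controls 1 to 3. The groups did not overlap, although HOXB4 1 and control 3 nearly touched, and the difference was -0.36 (SE 0.13) with a limma adjusted p of 0.605. Cfap36, a partner of the small GTPase Arl3, ran 8.42 to 8.58 in HOXB4 cells and 8.48 to 8.73 in controls, at -0.15 (SE 0.10). Cfap298, needed for dynein arm assembly, ran 7.05 to 7.34 in HOXB4 cells and 7.32 to 7.38 in controls, at -0.17 (SE 0.10), with HOXB4 2 among the controls. Cfap20, a conserved protein of the axoneme's inner junction, ran 11.03 to 11.15 in HOXB4 cells and 10.66 to 11.36 in controls, and its 3 HOXB4 values all lay inside the control range, at 0.075 (SE 0.18). Cfap69, a gene of the sperm flagellum, was at -0.16 (SE 0.21), and from -0.37 (without HOXB4 2) to -0.049 (without HOXB4 3) with an array left out.

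The remaining named Cfap genes differed by small amounts. Cfap44 and Cfap58, both genes of sperm flagella, were at -0.17 (SE 0.087) and -0.19 (SE 0.11), and Cfap299 at -0.17 (SE 0.10). Cfap161 stood at 3.45, 3.42 and 3.51 in HOXB4 cells 1 to 3, against 3.41, 3.35 and 3.24 in controls 1 to 3. It was among the 3 members whose HOXB4 values all lay above the controls, with a difference of 0.13 (SE 0.089); Cfap53, a gene of left-right asymmetry, was at 0.12 (SE 0.081) and Cfap47 at 0.075 (SE 0.080). Cfap54, a protein of the central apparatus, was at 0.097 (SE 0.14). The other 18 Cfap genes had differences between -0.17 and 0.024, 17 of them below 0. Of the members, 53 had 1 feature. The 4 features of Cfap47 gave 0.075, -0.28, -0.085 and 0.11, and the 2 of Cfap46 -0.085 and 0.042, brightest first, so neither gene has a direction that its features share.

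**Figure D4:**
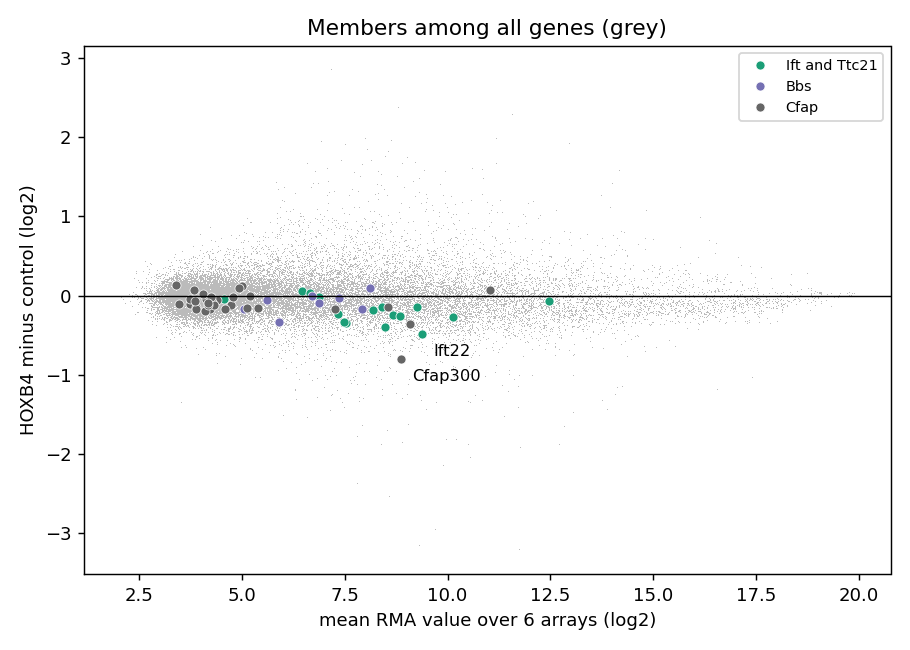
HOXB4 minus control difference (y axis, log2) against the mean value over the 6 arrays (x axis, log2) for all 30702 genes in grey and the 55 members in colour. The members lie inside the cloud of all genes; Ift22 and Cfap300 stand at its lower side at middle levels.

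The wider cilium was looked at through lists of other genes, none of which passed the test over all genes. The motors of the trains had 9 of 11 measured genes below 0, with a median of -0.090. The kinesin subunits Kif3a and Kif3b were at -0.045 (SE 0.11) and 0.033 (SE 0.088) and the dynein heavy chain Dync2h1 at -0.019 (SE 0.13). The largest differences were those of Dynll1, -0.21 (SE 0.10), and Dynlrb1, -0.18 (SE 0.10), light chains that cytoplasmic dynein uses outside cilia too, and Dync2li1, -0.21 (SE 0.21).

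The transition zone, the gate at the base of the cilium, had 14 of 18 measured genes below 0, with a median of -0.16, and 5 of the 18 had HOXB4 values that all lay below the controls, beside 10.2% of all genes. Iqcb1 (nephrocystin 5) stood at 9.31, 9.36 and 9.26 in HOXB4 cells 1 to 3, against 9.78, 9.68 and 9.57 in controls 1 to 3. The groups did not overlap, with a difference of -0.37 (SE 0.092) and a limma adjusted p of 0.605. B9d1, a subunit of the tectonic complex, stood at 5.61, 5.80 and 5.70 in HOXB4 cells 1 to 3, against 5.96, 6.01 and 5.90 in controls 1 to 3, a difference of -0.25 (SE 0.090) (limma adjusted p = 0.605). At an unadjusted p below 0.05, 4 of the 18 were lower and 0 higher, beside 5.95% and 2.23% of all genes.

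Of the 15 measured genes of the cilium membrane and basal body 9 lay below 0, with a median of -0.040, close to the -0.039 of all genes. Arl3, the GTPase that releases lipidated cargo in cilia, was at -0.35 (SE 0.13) and Pkd1, which encodes polycystin 1, at 0.33 (SE 0.13) (limma adjusted p = 0.605 and 0.605). Of the 15 measured Hedgehog pathway genes 12 lay below 0 (median -0.12). Smo, the receptor protein that enters the cilium on signalling, stood at 11.99, 12.15 and 11.62 in HOXB4 cells 1 to 3, against 12.25, 12.80 and 12.45 in controls 1 to 3. Its groups did not overlap and differed by -0.58 (SE 0.19). Ptch1, the Hedgehog receptor and itself a target of the pathway, stood at 9.05, 9.70 and 8.68 in HOXB4 cells 1 to 3, against 9.76, 9.69 and 9.93 in controls 1 to 3. HOXB4 2 lay inside the narrow control range, and the difference was -0.65 (SE 0.25) (limma adjusted p = 0.605, and 0.605 for Smo).

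The transcription factors of cilium genes had 6 of 12 measured genes below 0 and a median of -0.0032. Myb, which acts in multiciliated cells and in blood progenitors alike, was at 0.82 (SE 0.49), with HOXB4 2 at the level of controls 1 and 3. Rfx5 was at 0.13 (SE 0.084), and Rfx3, a regulator of cilium genes, at -0.19 (SE 0.17). Rfx3, mentioned after its values were seen, stood at 8.61, 9.02 and 8.60 in HOXB4 cells 1 to 3, against 9.06, 8.65 and 9.08 in controls 1 to 3. HOXB4 2 was highest in its group and control 2 lowest in its own, as in Ift81, Ift88 and 17.3% of all genes. Rfx2 had this layout too, while Rfx1, Rfx4, Rfx5, Rfx6 and Rfx7 did not. Regulation by Rfx3 was not tested. The motile axoneme list, to which Cfap300 is related by function, had 30 of 38 measured genes below 0 (median -0.054), beside 60.0% of all genes. Many of its genes were reported dimly, with a median level of 4.44. Of all genes below the array median in all 6 arrays, 65.2% lay below 0. At an unadjusted p below 0.05, 4 of the 38 were lower and 0 higher, beside 5.95% and 2.23% of all genes. These 4 were Dnaaf5, Dnaaf2, Dnaaf4 and Rsph3a. Dnaaf5, a factor that assembles dynein arms in the cytoplasm, stood at 10.41, 10.73 and 10.22 in HOXB4 cells 1 to 3, against 11.03, 10.93 and 11.08 in controls 1 to 3, without overlap, a difference of -0.56 (SE 0.14). Dnaaf2, another such factor, stood at 7.67, 7.92 and 7.48 in HOXB4 cells 1 to 3, against 8.39, 8.09 and 8.09 in controls 1 to 3, a difference of -0.50 (SE 0.15). For both the limma adjusted p was 0.605. Dnaaf4 and Rsph3a, mentioned after their values were seen, were at -0.29 (SE 0.087) and -0.47 (SE 0.14).

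**Figure D5:**
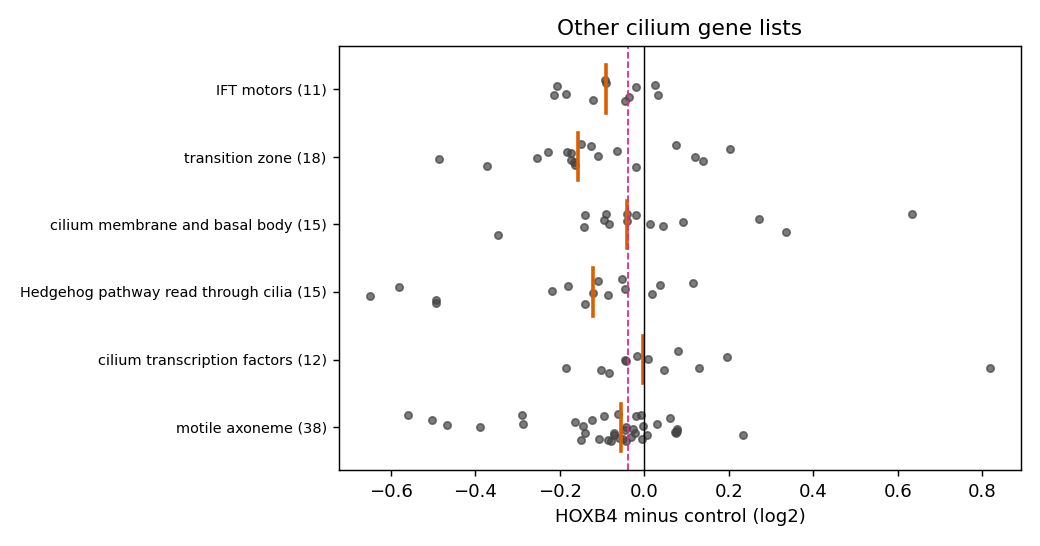
HOXB4 minus control difference (x axis, log2) of the genes of 6 other cilium lists, with the number measured in brackets. Orange bars are list medians and the dashed line is the median of all genes. The transition zone and Hedgehog medians lie left of it, at -0.16 and -0.12, and that of the cilium transcription factors right of it, at -0.0032.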

How the data were processed

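The deposited values are log2 expression summaries per feature that the authors made with Affymetrix Expression Console and RMA, per the submitters' processing notes; the sources used here give no versions or settings. Because RMA brings the arrays to one distribution, it would partly remove a shift shared by most genes. Per the labels' protocols, 100 ng of RNA per sample was labelled with the WT PLUS kit. Older platform symbols were replaced from a RefSeq table (GRCm38.p6), which gave 24 of the 55 members their name. The HOXB4 minus control difference was fitted over 30702 genes (R 4.3.3, limma 3.58.1, functions lmFit and eBayes). Tests were two-sided, p-values were adjusted by Benjamini-Hochberg with a threshold of 0.05, and SE is the moderated standard error. The steps were tested on simulated data. Other steps ran in Python 3.11.15 (numpy 2.4.6, pandas 2.3.3), and plots in matplotlib 3.10.9.

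Members and lists were chosen with earlier results of these data known. The rule for single mention took all Ift, Bbs and Ttc21 genes, Cfap300, the 5 brightest other Cfap genes, in each direction the 5 with the lowest unadjusted p, and from each other list the 2 with the lowest p; further list genes were added after their values were seen. The alternatives tried were a replicate block, 2 other variance settings, weighted arrays, a dim-feature filter, 2 scalings, other rules for features and symbols, and each array left out.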

Additional observations from a re-analysis of the deposited data

How the results depend on the processing

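No member was called under any of the 16 alternatives, and the median difference over all members stayed below 0 in each. Of the 38 members followed singly, 28 kept their sign under every alternative, among them Ift22 and Cfap300. The lower members without overlap numbered 5 of 35 with the filter on dim features, 4 with cyclic loess and 4 of 31 with platform symbols as given, and 9 to 22 when an array was left out; the higher ones numbered 1 with the filter and 0 with platform symbols. The unmoderated model had 1 higher member at an unadjusted p below 0.05, and the lower ones numbered 2 to 7 when an array was left out. The median of the Ift and Ttc21 genes was -0.16 with cyclic loess and ran from -0.27 to -0.17 with an array left out. With cyclic loess Bbs7 was at 0.027, Bbs9 at 0.0079, Ift122 at 0.022, Ift20 at 0.034 and Wdr19 at 0.00082; with arrays centred on their medians Bbs7 was at 0.014 and Ift122 at 0.0079. Cfap47 was at -0.044 as the mean of its features, and Cfap46 at 0.042 with platform symbols. With an array left out, the differences ran from -0.40 to 0.086 for Bbs4, -0.068 to 0.11 for Bbs7, -0.077 to 0.048 for Bbs9, -0.095 to 0.25 for Cfap20, -0.093 to 0.044 for Ift122, -0.023 to 0.16 for Ift140, -0.060 to 0.11 for Ift172, -0.17 to 0.069 for Ift20, -0.25 to 0.043 for Tulp3 and -0.11 to 0.044 for Wdr19. The cause of these changes was not tested, apart from the fewer genes that the filter and the platform symbols leave. Same-numbered arrays of the groups did not vary together (correlations of their deviations from the group means -0.40, -0.59 and -0.35). With so few arrays a group, these correlations cannot show whether same-numbered arrays came from the same experiment, so their pairing is not known. With the replicate block 0 members were called and the median over members was -0.11.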
